A study of Mus musculus with 12 samples.

Results

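The mitotic kinesins are motor proteins that move along or take apart microtubules while a cell divides, and their transcripts were followed in mouse glioblastoma tissue after treatment. The set held 10 genes, Kif11, Kif15, Kif18a, Kif18b, Kif20a, Kif20b, Kif22, Kif23, Kif2c and Kif4, out of 22180 genes measured. Each was read from the probe set whose array annotation named that symbol alone, and each had 1 such probe set. GL261, a mouse glioma cell line, had been implanted in the brains of male C57BL/6 mice aged 8 weeks, and total RNA was taken from the tumour mass on day 16. The 12 arrays fell into 4 groups of 3: Control, TMZ (temozolomide, a DNA alkylating drug, 30 mg/kg into the peritoneum), Anti-PD-1 (an antibody against PD-1, an inhibitory receptor of T cells, given intravenously at 10 mg/kg with 2 doses each week) and Combination (both agents at those doses). All 4 groups carried the same implanted line. The labels do not say what Control animals received, on which days the agents were given, or whether each array came from its own animal, so the p-values measure the spread between arrays, which may be technical.

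A dividing cell builds a spindle of microtubules, lines its chromosomes up on it, pulls them apart and then cuts itself between the separated sets, and different kinesins serve each step. Their transcripts are made mainly in the G2 and M phases of the cell cycle, so that tissue with many cycling cells carries more of them; neurons, which have left the cycle, use other kinesins to carry cargo along axons. In gliomas these genes are known as part of the proliferation signature. In bulk tissue, fewer cycling cells and less of the transcript per cell cannot be told apart.

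Values are log2 signals after the authors' RMA normalisation, so a difference of 1 is a doubling. All 10 probe sets were dim, with means over the 12 arrays from 3.10 (Kif4) to 5.26 (Kif18b), below the median gene at 5.72. Signals of different probe sets are not comparable as amounts of transcript. Any pair of arrays correlated at 0.984 to 0.991. The first principal component (26.6% of the variance) placed Control replicates 1 and 2 apart, at -20.1 and -26.4, and put Control replicate 3, at -1.28, among the treated arrays (-4.10 to 13.9). The tissue was labelled glioblastoma in brain. Glioma and neural progenitor markers had mean signals of 6.92 to 7.50 per array and neuron markers 9.57 to 9.74, so neuronal transcripts were present on every array.

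Kif20a, Kif18a, Kif23, Kif15, Kif18b and Kif11 were lower in treated than in Control tumours: with the 3 treated groups weighted equally, these 6 of the 10 fell, by 0.44 to 0.95 on the log2 scale. The other 4, Kif20b, Kif22, Kif2c and Kif4, did not pass the test, at -0.37, -0.43, -0.40 and -0.16. Against single treatments fewer passed: 2 of 10 fell with Anti-PD-1 (Kif20a and Kif18a), and 0 of 10 passed with TMZ or Combination. The fit was limma's moderated test on all 12 arrays, with p-values adjusted by Benjamini-Hochberg over all 22180 genes and a threshold of 0.05. In the pooled contrast 145 genes were called lower, 0.654% of all genes, and the median difference was -0.52 over the 10 members against 0.00 over all genes. All 10 differences were below 0, as for 48.5% of genes, and 9 had an unadjusted p under 0.05, as had 7.83% of genes on the lower side. For 6 members all treated arrays lay below all Control arrays, as for 1.87% of genes. The calls rested on the Control arrays: leaving out Control replicate 1 or Control replicate 2 left 0 of 10 called, and leaving out Control replicate 3 left 8. It was 3 without TMZ replicate 2, TMZ replicate 3, Combination replicate 2 or Combination replicate 3, and 4 to 6 without each of the other treated arrays. Here and below, the share of all genes called in each fit with 1 array left out is not given. These counts are therefore not shown to be particular to the kinesins.

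**Figure D1:**
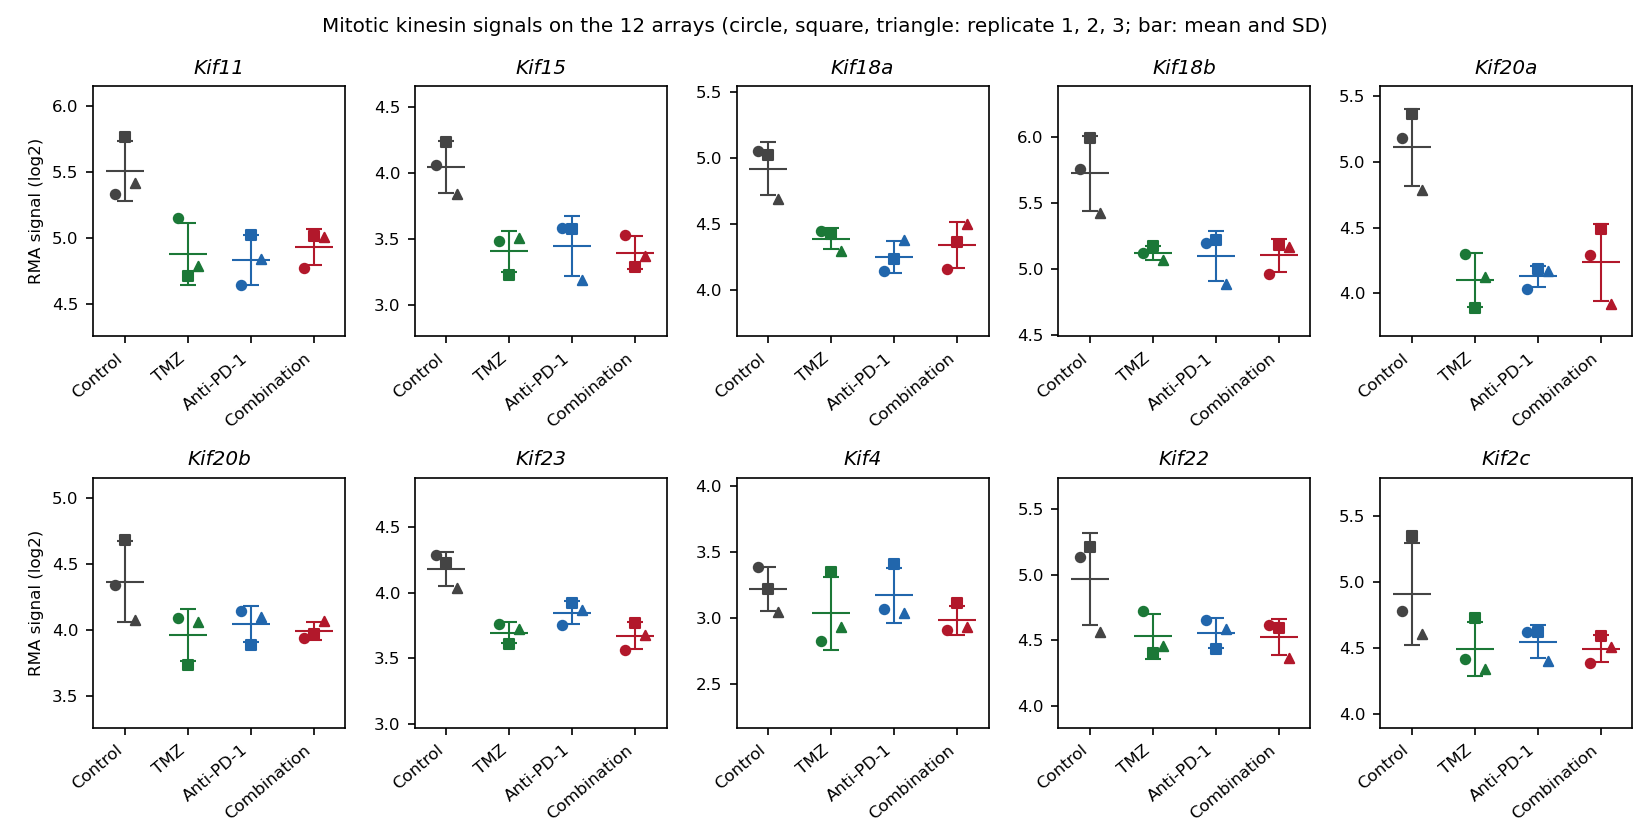
Log2 RMA signal of each mitotic kinesin (vertical axes, each spanning the same range of log2 units) on the 12 arrays, grouped by treatment on the horizontal axis; symbols mark replicates 1, 2 and 3, and bars give the group mean and SD (n = 3). In 6 of the 10 panels (Kif11, Kif15, Kif18a, Kif18b, Kif20a and Kif23) all 3 Control arrays lie above all 9 treated arrays.

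Kif11 and Kif15 build and hold the bipolar spindle. Kif11 slides the microtubules of opposite poles apart, and Kif15 can help keep the poles apart. Kif11 read 5.33, 5.76 and 5.42 on Control replicates 1, 2 and 3, then 5.15, 4.71 and 4.79 in TMZ, 4.64, 5.02 and 4.84 in Anti-PD-1, and 4.77, 5.01 and 5.004 in Combination. The lowest Control array stood above the highest treated one, TMZ replicate 1. Its pooled difference was -0.62 ± 0.12 (SE; limma adjusted p = 0.0368), a 1.54-fold lower signal. Kif15 read 4.06, 4.24 and 3.84 in Control, against 3.49, 3.23 and 3.51 in TMZ, 3.58, 3.58 and 3.19 in Anti-PD-1, and 3.53, 3.29 and 3.37 in Combination. Again no treated array reached a Control array, and the pooled difference was -0.63 ± 0.11 (limma adjusted p = 0.0296). With 1 array left out at a time, Kif15 stayed past the threshold in 6 of 12 fits and Kif11 in 2 of 12.

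Kif18a and Kif18b belong to 1 family that trims microtubule plus ends, Kif18a at the chromosomes lined up in metaphase and Kif18b on the astral microtubules that reach the cell cortex. Kif18a read 5.05, 5.02 and 4.68 in Control, 4.44, 4.42 and 4.29 in TMZ, 4.14, 4.23 and 4.38 in Anti-PD-1, and 4.15, 4.36 and 4.50 in Combination. All 9 treated arrays lay below all 3 Control arrays. It fell with Anti-PD-1 (-0.67 ± 0.11 SE, limma adjusted p = 0.0472) and in the pooled contrast (-0.59 ± 0.09, adjusted p = 0.019), and it was at -0.53 with TMZ and -0.58 with Combination. Kif18b read 5.76, 5.99 and 5.43 in Control and between 4.88 and 5.22 on the 9 treated arrays, with the 3 TMZ arrays within 5.07 to 5.18. Its groups did not overlap either, and its pooled difference was -0.62 ± 0.11 (adjusted p = 0.03).

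Kif20a, Kif23 and Kif20b act at the central spindle and in cytokinesis. Kif20a brings the Aurora B kinase complex from the chromosomes to the central spindle, Kif23 forms the centralspindlin complex with Racgap1, and Kif20b acts late, at the midbody. Kif20a had the largest difference of the 10 against Control in every contrast with it. It read 5.18, 5.36 and 4.79 in Control, 4.30, 3.89 and 4.12 in TMZ, 4.04, 4.18 and 4.17 in Anti-PD-1, and 4.29, 4.49 and 3.92 in Combination, with no overlap. The pooled difference was -0.95 ± 0.14 (SE), a 1.94-fold lower signal (limma adjusted p = 0.0157), and the call held in 10 of 12 fits that left out 1 array, the exceptions being those without Control replicate 1 or 2.

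Kif23 read 4.28, 4.23 and 4.03 in Control, against 3.76, 3.61 and 3.72 in TMZ, 3.75, 3.92 and 3.87 in Anti-PD-1, and 3.56, 3.77 and 3.68 in Combination. Its difference was smaller than that of Kif20a, and its SD within a group was 0.0786 to 0.131 against 0.0810 to 0.293 for Kif20a, lower in Control, TMZ and Combination but not in Anti-PD-1. Its pooled difference of -0.44 ± 0.07 (SE) had an adjusted p = 0.019. Kif20b read 4.34, 4.68 and 4.08 in Control and from 3.73 to 4.14 on treated arrays, and 3 treated arrays reached or passed Control replicate 3. It was at -0.37 ± 0.12 in the pooled contrast and missed the threshold (adjusted p = 0.157). It was at -0.21 without Control replicate 2, and at -0.51 without Control replicate 3, where it passed (adjusted p = 0.0344).

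Kif4 and Kif22 are chromokinesins, motors that bind chromosome arms; Kif4 also works with Prc1 on the central spindle, and Kif22 pushes the arms toward the spindle equator. Kif4 stood apart from the other members. It read 3.38, 3.22 and 3.05 in Control, 2.82, 3.34 and 2.93 in TMZ, 3.07, 3.41 and 3.03 in Anti-PD-1, and 2.90, 3.11 and 2.93 in Combination, so its highest array was Anti-PD-1 replicate 2 and its groups overlapped throughout. Its differences from Control were -0.18 ± 0.14 (SE) with TMZ, -0.05 ± 0.14 with Anti-PD-1 and -0.24 ± 0.14 with Combination, and the pooled interval ran from -0.41 to 0.10. Its pooled difference of -0.16 became -0.07 when Control replicate 1 was left out and -0.24 when Control replicate 3 was. Its probe set was the dimmest of the 10, with a mean signal higher than that of 10.6% of genes; the part of dimness in its small differences was not tested. Kif22 read 5.13, 5.21 and 4.56 in Control and 4.37 to 4.72 on treated arrays. Control replicates 1 and 2 stood above all treated arrays, and 5 of the 9 treated arrays reached or passed Control replicate 3; the pooled difference was -0.43 ± 0.12 (adjusted p = 0.128). Without Control replicate 3 it was -0.63 and passed (adjusted p = 0.0067), and without the other arrays in turn it was -0.46 to -0.31.

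Kif2c has no stepping motion; it takes microtubule ends apart and so frees wrongly attached chromosomes. It read 4.78, 5.35 and 4.60 in Control, 4.42, 4.72 and 4.34 in TMZ, 4.62, 4.63 and 4.40 in Anti-PD-1, and 4.39, 4.59 and 4.51 in Combination. Control replicate 2 was far above the rest, and 3 treated arrays reached or passed Control replicate 3. The pooled difference was -0.40 ± 0.14 (SE; adjusted p = 0.186). Leaving out Control replicate 2 brought it to -0.18 and leaving out Control replicate 3 to -0.55, and none of the 12 such fits called it. Across the 10 members, Control replicate 2 was the highest of the 12 arrays for 7 and Control replicate 1 for 2, and Control replicate 3 for 0. Measured from the mean of the treated groups, the median member was 0.57 higher on Control replicate 1, 0.76 on replicate 2 and 0.31 on replicate 3, and on replicate 3 it was above the treated mean for 9 of 10 members.

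The separate comparisons with Control share its 3 arrays. With TMZ all 10 differences were below 0, from -1.01 ± 0.17 (SE, Kif20a; limma adjusted p = 0.0566) to -0.18 (Kif4), with a median of -0.51 against 0.01 over all genes, of which 47.9% were below 0. In limma 0 of 10 members passed, where 18 of 22180 genes were called lower (0.0812%); 9 of 10 had an unadjusted p under 0.05, as had 5.78% of all genes in that direction. For 6 members the TMZ arrays lay wholly below Control, as they did for 6.81% of all genes. Without Control replicate 3 limma called 6 members (Kif15, Kif18a, Kif18b, Kif20a, Kif23 and Kif22), and without any other array 0.

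With Anti-PD-1 the 10 differences ran from -0.98 ± 0.17 (SE, Kif20a; limma adjusted p = 0.0472) to -0.05 (Kif4), with a median of -0.50 against 0.01 over all genes; all 10 were below 0, as were 47.6% of genes, and 8 had an unadjusted p under 0.05, as had 6.79% of genes on that side. The 2 called members, Kif20a and Kif18a, compare with 47 genes called lower in all (0.212%). Groups did not overlap for 6 members, as for 8.33% of all genes. Leaving out Control replicate 3 raised the count to 7, leaving out TMZ replicate 1 gave 1 (Kif20a), and each of the other 10 arrays left out gave 0.

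With Combination the differences ran from -0.88 ± 0.17 (SE, Kif20a; limma adjusted p = 0.129) to -0.24 (Kif4), with a median of -0.54 against 0.00 over all genes, of which 49.8% were below 0. Limma called 0 members and 0 genes in all (0%), and 9 members had an unadjusted p under 0.05, as had 6.18% of all genes with a lower signal. The member with the smallest adjusted p was Kif23 (-0.51 ± 0.08, adjusted p = 0.107). For 8 members, all but Kif4 and Kif22, the Combination arrays lay wholly below Control, as for 7.82% of all genes. Limma called 6 members without Control replicate 3 and 0 without any other array.

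**Figure D2:**
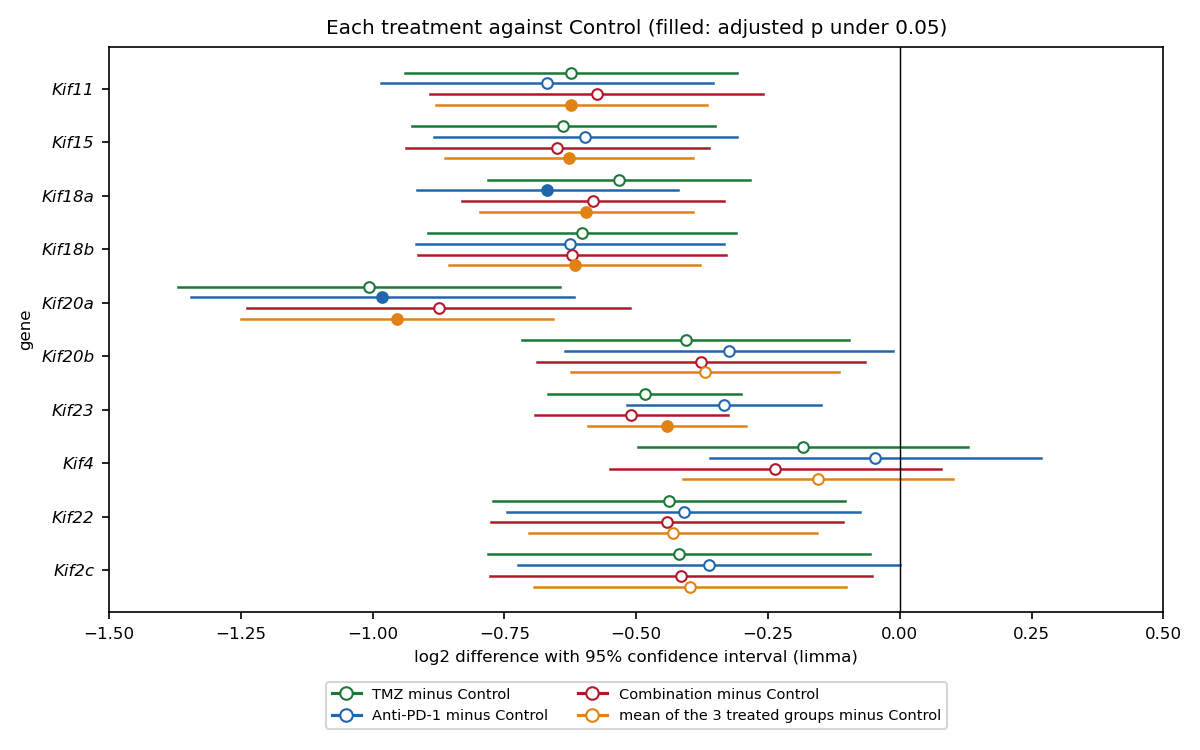
Log2 difference of each member from Control (horizontal axis) with its 95% confidence interval from limma, for TMZ, Anti-PD-1, Combination and the mean of the 3 treated groups; filled points have an adjusted p under 0.05 over all genes. Kif20a lies farthest left at -0.95 in the pooled contrast, and the intervals of Kif4 include 0 in all 4 contrasts.

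The treated groups were then set against each other, to see what each agent added to the other and whether the agents differed. Limma called 0 of 10 members in Combination against TMZ, Combination against Anti-PD-1, and TMZ against Anti-PD-1, and 0 had an unadjusted p under 0.05; over all genes 0 (0%) were called in each, with 4.19%, 4.91% and 4.51% at an unadjusted p under 0.05. Median member differences were -0.01, -0.04 and -0.03. For Kif20a Combination was 0.13 above TMZ (95% interval -0.23 to 0.49) and 0.11 above Anti-PD-1 (-0.26 to 0.47). All 30 intervals of these 3 comparisons included 0, and their outer bounds were -0.50 (Kif4, Combination minus Anti-PD-1) and 0.49 (Kif20a, Combination minus TMZ). Differences of up to that size are therefore not shown to be absent. Kif23 came nearest to a difference, at -0.18 ± 0.08 (SE) for Combination minus Anti-PD-1, with a limma adjusted p = 0.9996.

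**Figure D3:**
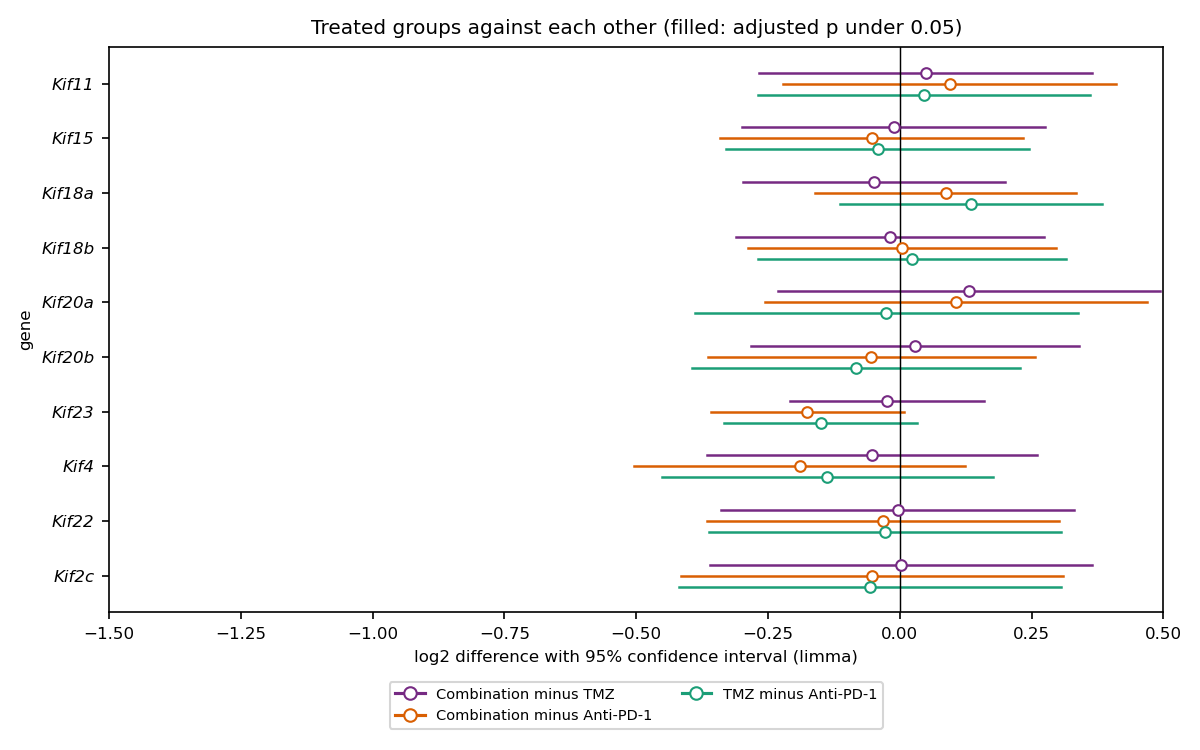
Log2 differences between the treated groups (horizontal axis, same scale as the plot against Control) with 95% confidence intervals from limma for each member. Every interval crosses 0; the points lie between -0.19 and 0.14.

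A further contrast asked whether the differences of the single agents add up in the Combination group on the log2 scale (Combination minus TMZ, less Anti-PD-1 minus Control). It was above 0 for 9 of 10 members, with a median of 0.50 against -0.02 over all genes, of which 53.8% were below 0; this means that Combination was less low than the sum of both single differences. Kif20a was at 1.11 ± 0.23 (SE; limma adjusted p = 0.2), Kif11 at 0.72 ± 0.20 (0.346), Kif18a at 0.62 ± 0.16 (0.28) and Kif4 at -0.01 ± 0.20 (0.994). Limma called 0 members and 1 gene in all (0.00451%); 6 members had an unadjusted p under 0.05, as had 4.65% of all genes on the higher side. Without Control replicate 3, Kif20a and Kif18a passed (adjusted p = 0.0253 and 0.0402), and without any other array 0 members passed. With a neuron marker score as a covariate the median was 0.18, 4 of 10 members were below 0 (Kif20b, Kif4, Kif22 and Kif2c), 1 had an unadjusted p under 0.05 and 0 passed. The Control arrays enter this contrast once and both single comparisons too. Where the treated groups are alike, the contrast returns how far Control stood above them. The 9 members above 0 are therefore not separate evidence on how the agents combine. The moderated F test for any difference among the 4 groups called 0 members (adjusted p from 0.116 for Kif20a to 0.779 for Kif4) and 1 gene in all (0.00451%), with 7 members at an unadjusted p under 0.05, as had 10.1% of genes; it called 5 members without Control replicate 3 and 0 without any other array.

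**Figure D4:**
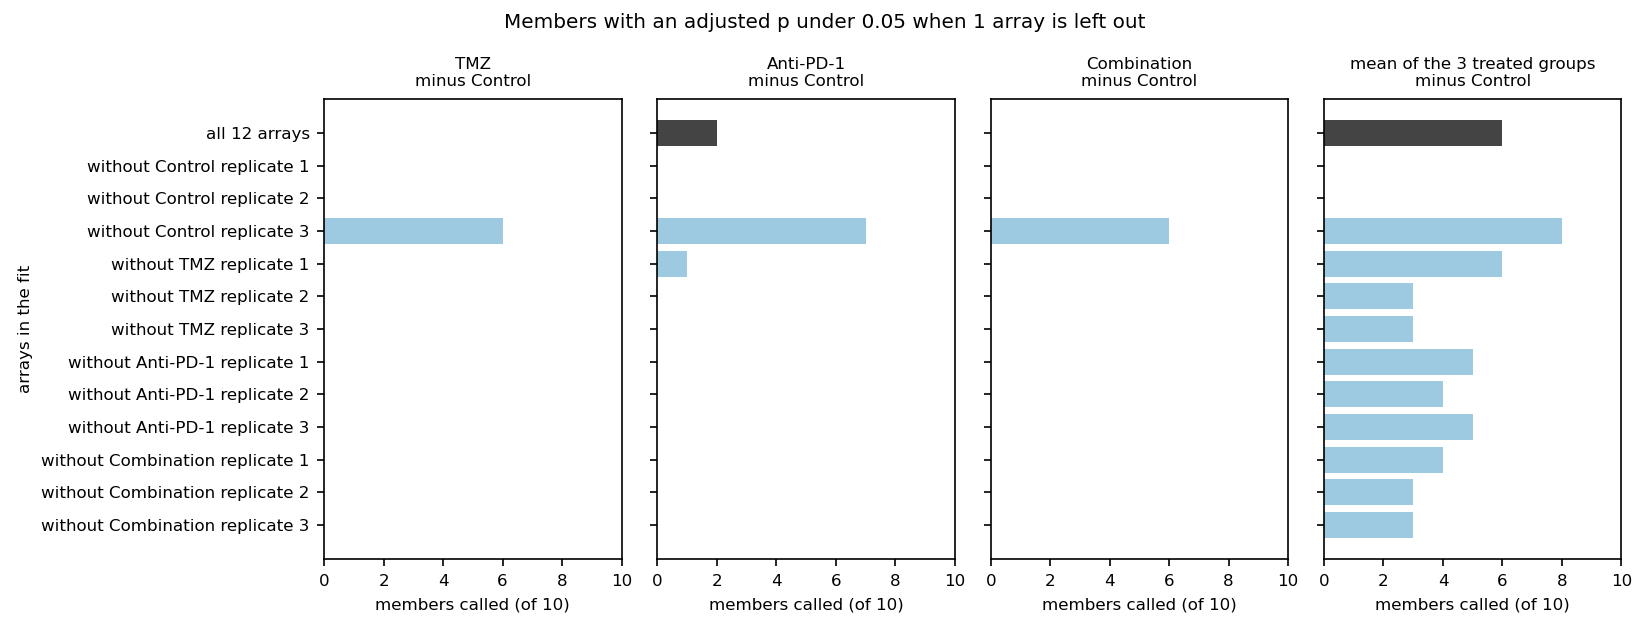
Number of the 10 members with a limma adjusted p under 0.05 (horizontal axes) with all 12 arrays (dark bars) and with each array left out in turn (light bars), for the 4 contrasts with Control. The pooled contrast gives 6 with all arrays, 0 without Control replicate 1 or 2, and 8 without Control replicate 3.

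Promoter sequences are given because several members fell in the pooled contrast. RefSeq windows on GRCm38.p6, from 250 bases before the transcription start to 50 after it, were read for 9 of the 10 members. Kif20a was the member without a window. Genes expressed in G2 and M often carry a cell cycle homology region, whose core reads TTTGAA, and CCAAT boxes a short way upstream. TTTGAA was searched on both strands and was in 8 of the 9 member windows, against 5878 of 32851 windows in the table (17.9%). The Kif2c window, among the 8, was set on a start at 117178772. That lies inside the gene, whose span begins, on the minus strand, at 117182624, so its match may not lie in the promoter. CCAAT, also searched on both strands, was in 5 of 9, against 37.4%, and both were in 5 of 9, against 6.95%; no match of one overlapped a match of the other in the members. Among the kinesins of transport and cilia 3 of 23 windows held TTTGAA, 7 held CCAAT and 2 held both. Among the partners and regulators of mitotic kinesins 13 of 26 held TTTGAA, 19 held CCAAT and 11 held both. Among 6 other kinesins of mitosis 3 held TTTGAA, 6 held CCAAT and 3 held both. The motifs were thus not particular to the members. The stretch from 100 bases before the start to 30 after it follows for 6 members, 5 that fell in the pooled contrast and Kif4, which did not, with both motifs in capitals (a match on the opposite strand shows as its reverse complement):
Kif11, chr19:37376282-37376411, plus strand: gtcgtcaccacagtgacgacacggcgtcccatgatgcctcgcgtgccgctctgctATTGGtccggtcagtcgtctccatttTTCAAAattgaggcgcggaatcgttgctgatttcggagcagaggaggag
Kif15, chr9:122950981-122951110, plus strand: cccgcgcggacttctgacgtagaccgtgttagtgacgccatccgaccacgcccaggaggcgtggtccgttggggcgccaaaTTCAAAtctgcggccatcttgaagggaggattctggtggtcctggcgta
Kif18a, chr2:109280638-109280767, plus strand: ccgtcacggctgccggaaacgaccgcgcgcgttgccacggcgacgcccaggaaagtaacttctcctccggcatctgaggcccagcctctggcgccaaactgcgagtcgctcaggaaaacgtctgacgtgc
Kif18b, chr11:102925095-102925224, minus strand: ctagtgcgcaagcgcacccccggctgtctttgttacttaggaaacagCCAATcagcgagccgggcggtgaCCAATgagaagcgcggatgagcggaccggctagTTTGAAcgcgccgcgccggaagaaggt
Kif23, chr9:61946770-61946899, minus strand: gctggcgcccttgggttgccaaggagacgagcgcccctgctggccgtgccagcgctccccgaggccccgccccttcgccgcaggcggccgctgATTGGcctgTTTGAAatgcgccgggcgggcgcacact
Kif4, chrX:100625965-100626094, plus strand: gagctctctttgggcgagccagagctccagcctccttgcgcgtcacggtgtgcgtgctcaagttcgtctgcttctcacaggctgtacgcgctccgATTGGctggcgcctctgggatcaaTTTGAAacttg
Positions count the start as 1 and the base before it as -1. TTTGAA lay close to the start in Kif11 and Kif15 (first base at -19 in both, on the other strand), Kif18b (at 4), Kif23 (at 3) and Kif4 (at 20). Kif20b (at 8 and 14) and Kif22 (at -17, on the other strand), whose stretches are not printed, also had TTTGAA close to the start. Neither was called in the pooled contrast. Kif18b had CCAAT at -53 and -30, Kif11 at -45, Kif23 at -7 and Kif22 at -233 and -54. The Kif18a window held neither run of letters, and Kif18a was called in 2 contrasts. Kif4 held both (CCAAT at -152 and -5) and was called in 0. Whether the motifs bear on the differences was not tested. A match is a description of the letters; no binding was measured.

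Other kinesins of mitosis, from a list of 6, were mixed. Cenpe, the motor that carries chromosomes to the spindle equator, fell with Anti-PD-1 (-0.76 ± 0.12 SE, limma adjusted p = 0.0421) and in the pooled contrast (-0.72 ± 0.10, adjusted p = 0.0152), and was at -0.67 with TMZ and -0.73 with Combination. Kif14, which acts in cytokinesis, was at -0.42 ± 0.12 in the pooled contrast (adjusted p = 0.129). Kifc1, a motor that draws the spindle poles together, was at 0.06 with TMZ, -0.31 with Anti-PD-1 and 0.25 with Combination, all short of the threshold, and its close copy Kifc5b was at -0.18, 0.11 and -0.12. Probes of such near-identical genes may not separate them, so both are uncertain. Of the 6, 1 was called lower and 0 higher in the pooled contrast, with a median of -0.09.

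Kinesins listed under transport and cilia gave another picture in their median, which was 0.04 in the pooled contrast, against 0.00 over all genes. Their values ran from -0.11 to 0.17, with 16 above 0 and 10 below it. Of 26 measured, 0 were called in any contrast with Control. That count is near the share over all genes, of which 0.654% were called lower in the pooled contrast. For these 26 the smallest adjusted p against Control was 0.118.

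Of 26 measured partners, cargo and regulators of the mitotic kinesins, 14 fell and 0 rose in the pooled contrast (median -0.55), 3 fell with TMZ, 4 with Anti-PD-1 and 0 with Combination, where 23 were below 0. The other 12 did not pass in the pooled contrast, and 3 were above 0. Prc1, which bundles the central spindle and recruits Kif4, fell by 1.01 on the log2 scale in the pooled contrast (SE 0.15, limma adjusted p = 0.0183), and Racgap1, the partner of Kif23, was at -0.51 ± 0.09 (0.0296). Ect2, which Racgap1 activates to start the cleavage furrow, was at -1.31 ± 0.16 (0.00895), and it fell with TMZ (-1.25) and Anti-PD-1 (-1.39). Hmmr, a spindle pole protein, was at -0.79 ± 0.09 (0.00781), Aurka, the kinase of the spindle poles, at -0.62 ± 0.08 (0.014), and Gtse1, a microtubule-binding protein that inhibits Kif2c, at -0.57 ± 0.08 (0.0183). Tpx2, which targets Aurka to the spindle and binds Kif11, was at -0.76 ± 0.14 (0.0327). Aurkb, whose complex Kif20a carries, missed the threshold at -0.35 ± 0.08 (0.0728).

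Of 23 measured regulators of G2 and M transcription, 1 was called in the pooled contrast: Foxm1, an activator of G2 and M genes, fell by 0.64 on the log2 scale (SE 0.13, limma adjusted p = 0.0458). Mybl2, which acts with it, was at -0.22 ± 0.08 (0.197), and Cdkn1a, the p21 inhibitor of cyclin-dependent kinases, at -0.38 ± 0.10 (0.0982). Rbl1, a relative of the retinoblastoma protein, was at -0.57 ± 0.15 (0.101) and E2f8, a repressor of the E2F family, at -0.40 ± 0.13 (0.161), both short of the threshold. In the list 16 genes were below 0 and 7 above it, with a median of -0.08, and its score did not overlap between Control (0.01 to 0.17) and treated arrays (-0.05 to -0.01). Of 14 proliferation reference genes 8 fell and 0 rose in the pooled contrast (median -0.59), among them Ccna2 (cyclin A, -1.21 ± 0.14, adjusted p = 0.00781), Top2a (-1.58 ± 0.22, 0.0157), Mki67 (Ki-67, -1.09 ± 0.16, 0.0183), Cdc20 (an activator of the anaphase-promoting complex, -0.81 ± 0.13, 0.019) and Rrm1 (a subunit of ribonucleotide reductase, -0.36 ± 0.06, 0.0296). With Anti-PD-1 the same 5 were called, and with TMZ Ccna2 was the 1 called.

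**Figure D5:**
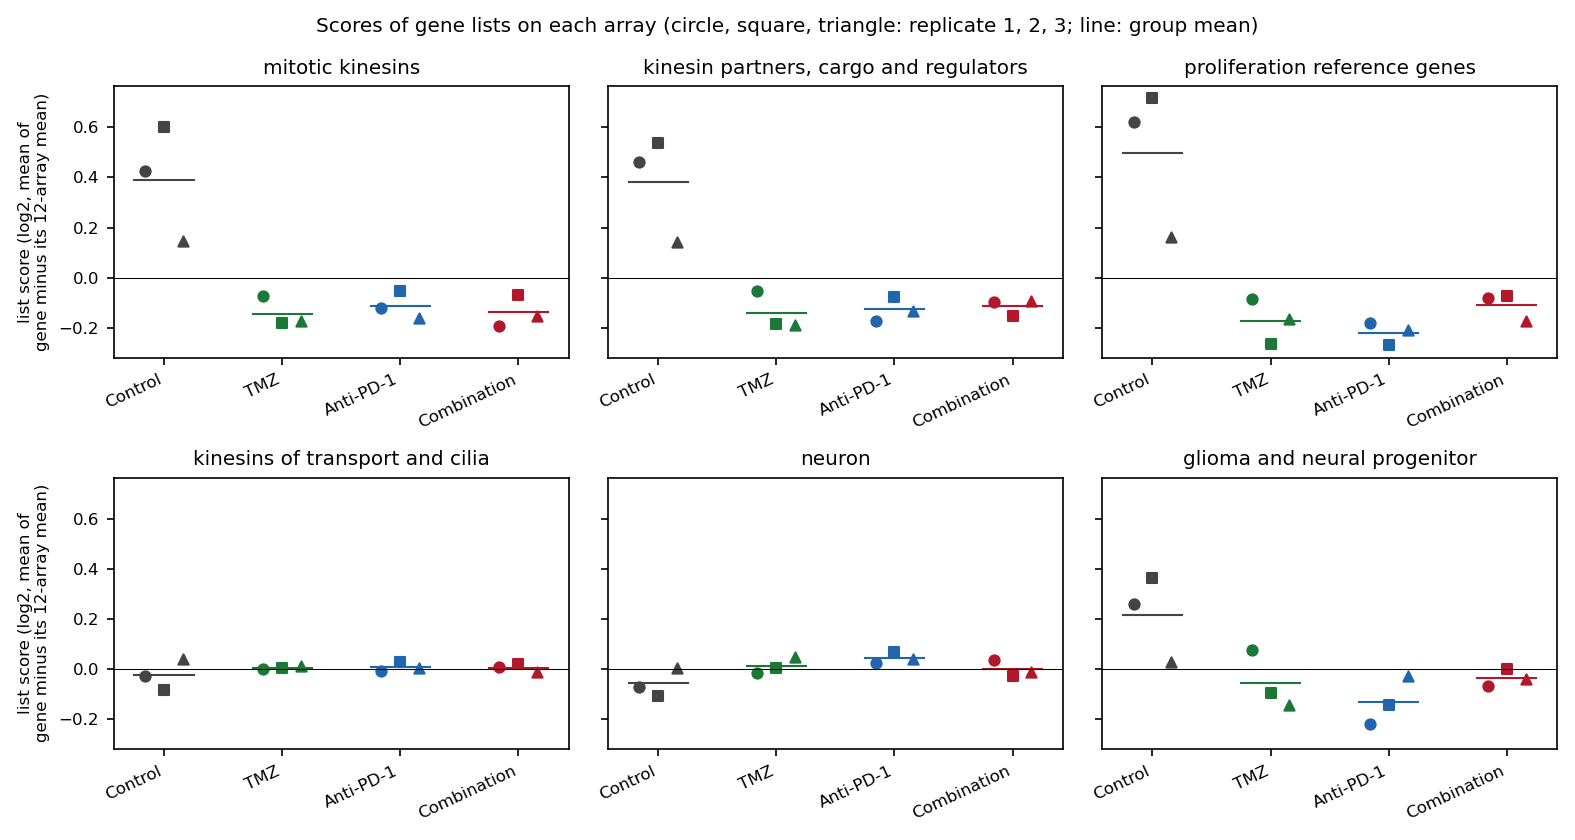
Score of each gene list on each array (vertical axis, the mean over the list of the log2 signal minus the gene's mean over 12 arrays), by group on the horizontal axis; symbols mark replicates 1, 2 and 3, and lines give group means. The mitotic kinesin score is 0.14 to 0.60 in Control and -0.19 to -0.05 on the treated arrays, while the transport kinesin and neuron scores stay within -0.10 to 0.07.

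Markers of other cells in the tumour mass were read on the same arrays, and few passed the test. The neuron score was -0.10 to 0.01 in Control, against -0.02 to 0.05 in TMZ, 0.02 to 0.07 in Anti-PD-1 and -0.03 to 0.04 in Combination; 17 of 18 markers were above 0 in the pooled contrast, with a median of 0.05, and 0 were called. Glioma and neural progenitor scores were 0.03 to 0.36 in Control, -0.14 to 0.08 in TMZ, -0.22 to -0.03 in Anti-PD-1 and -0.07 to 0.00 in Combination, and 3 of 10 markers fell in the pooled contrast: Vim (-1.01 ± 0.19 SE, limma adjusted p = 0.036), Myc (-0.56 ± 0.09, 0.0241; also called with Anti-PD-1) and Nes (-0.42 ± 0.08, 0.0368). Microglia scores were 0.03 to 0.18 in Control and -0.24 to 0.07 on treated arrays, with 1 of 9 markers called lower (Olfml3, -0.38 ± 0.07, 0.0368). Endothelium scores did not overlap between Control (-0.19 to -0.12) and treated arrays (-0.08 to 0.47), with 10 of 10 markers above 0 in the pooled contrast, a median of 0.16 and 0 called. Monocyte or macrophage scores were 0.00 to 0.49 in Control and -0.37 to 0.23 on treated arrays, and T cell scores 0.01 to 0.21 and -0.20 to 0.09, with 0 called in either list. With the neuron score as a covariate, limma called 0 of 10 kinesins and 0 genes in all in the pooled contrast; all 10 differences stayed below 0, the median was -0.35 in place of -0.52, and Kif20a was at -0.73. With Anti-PD-1 under this covariate the median was -0.23 in place of -0.50, 6 of 10 differences were below 0 and 3 had an unadjusted p under 0.05; Kif20b, Kif4, Kif22 and Kif2c stood just above 0, at 0.01 to 0.07. The part of the other cell types in these differences was not tested.

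The members also moved together over the 12 arrays, but less so without Control replicates 1 and 2. Over 45 pairs of members, Pearson's r across the 12 arrays ranged from 0.05 to 0.90 with a median of 0.77. The points include Control replicates 1 and 2, which stand apart. Without them r ranged from -0.69 to 0.78 with a median of 0.22, and 33 of 45 pairs were above 0. After subtracting group means the median was 0.41, with 40 of 45 above 0. The median member then deviated most on Control replicates 2 (0.24) and 3 (-0.26), against -0.11 to 0.08 on the other arrays. Correlations after subtracting group means were not repeated without those Control arrays. Pairs of genes outside the set were not summarised in the same way, so these correlations are not shown to be particular to the members. Kif18b followed the mean of the other members most closely (r = 0.96) and Kif4 least (0.38). The 8 other genes most like the members' mean over the 12 arrays were Prc1 (Pearson's r = 0.987), Ect2, Mcm7, Piezo2, Ckap2, Dlgap5, Moxd1 and Cenpe (0.962), with r of 0.79 to 0.89 on the 10 arrays without Control replicates 1 and 2. After subtracting group means they were Yipf3 (0.979), Prc1 (0.97), Shmt2, Gm12508, Ifit2, Lce1b, Slfn2 and Vasp (0.946), with 1 gene, Prc1, in both lists. These are descriptions of the highest values among 22170 genes, on arrays that were normalised together.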

How the data were processed

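Total RNA of 12 samples was hybridised to Affymetrix whole-transcript arrays. The deposited values are log2 signals that the authors made with RMA in the Affymetrix Expression Console, per the submitters' processing notes; versions and genome build are not given in the sources used here. RMA corrects background, equalises the distributions of all arrays and summarises probes, which can shrink differences of dim probe sets. The table held 41345 probe sets with 0 missing values. The array annotation named 1 symbol for 23521, several for 1814 and did not list 16010; 1 probe set per gene was kept (highest mean over the arrays), giving 22180 genes with no filter. Arrays give no read depth; 3 per group limit the precision.

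Genes were fitted with limma 3.58.1 in R 4.3.3 (a mean per group, all 12 arrays, 8 residual degrees of freedom, eBayes), two-sided, with Benjamini-Hochberg adjustment over all genes and a threshold of 0.05. The fit was tested on simulated data in which each gene varied independently on each array. Shifts of an array shared by many genes were not simulated. Errors are SE of differences. The members and lists were chosen with earlier results of these data known. Named were all members, genes of a list past the threshold (the 5 with the smallest p where more) and fixed genes: Cenpe, Kif14, Kifc1, Aurkb, Racgap1, Prc1, Tpx2, Foxm1, Mybl2, Cdkn1a, Mki67 and Top2a. Kifc5b, Rbl1 and E2f8 were named after their values were seen. Of 109 list entries 105 were measured. Oligodendrocyte, astrocyte, monocyte or macrophage, T cell, B cell and endothelium markers had 0 members called against Control.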

Additional observations from a re-analysis of the deposited data

How the results depend on the processing

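Every member kept the sign of its pooled difference from Control in all 196 refitted values over 20 settings (-1.12 to -0.07), as did all 206 values over 21 settings with TMZ and with Combination. With Anti-PD-1 199 of 206 did, and in the interaction 187 of 196. Many of these values could only repeat the main fit, so their number does not measure robustness. A variance trend, robust eBayes, other choices of probe sets, leaving out dim genes and the replicate block cannot move a member's difference. For a single treatment, neither can fitting only the compared groups or leaving out an array of another group. The counts of calls were less stable. With a variance trend limma called 1 member with TMZ, 5 with Anti-PD-1, 1 with Combination and 1 in the F test. With TMZ, leaving out the dimmest 25% of genes by mean, which removed 4 members, gave 1. With Anti-PD-1 the count of 2 became 1 after re-centring the arrays and 0 with robust eBayes, with all probe sets tested, with only the groups compared in the fit, with the neuron covariate or with the replicate block. In the pooled contrast it was 1 with all probe sets tested and 0 with the neuron covariate, against 6. Leaving out 1 array at a time gave 0 to 6 members with TMZ, 0 to 7 with Anti-PD-1, 0 to 6 with Combination, 0 to 8 in the pooled contrast, 0 to 2 in the interaction, 0 to 5 in the F test, and 0 in each comparison between treated groups. These ranges are given without the share of all genes called in the same fits. The causes were not tested.

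Whether the shared replicate numbers pair the samples cannot be settled from so few arrays per group. A correlation of deviations over 0.1 was seen in 1 of 18 same-numbered pairs of arrays and 6 of 36 other pairs. Of the 12 arrays, 4 matched their own number best. With the replicate block, limma called 5 members in the pooled contrast and 0 in every other contrast. All 10 probe sets lay below the median gene; whether dimness bears on the differences was not tested.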
